A study of Sus scrofa domesticus with 4 samples.

Results

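SF3B1, SRSF1, SRSF11 and CLK1 encode 3 factors that act in pre-mRNA splicing and 1 kinase that acts on splicing factors. Their transcripts were followed in explants of pig myometrium, the muscular wall of the uterus, kept with or without orexin A (OXA), a hypothalamic peptide hormone. The members were all probes designed to a RefSeq transcript of the 4 genes, which gave 28 of the 43603 probes on the array. The genes were proposed with their log ratios in this same comparison known, so those ratios are a description and carry no test. The tissue came from 4 mature gilts (Large White x Polish Landrace, 7 to 8 months old) on days 15 to 16 of gestation. After 2 h of preincubation the explants stayed in medium for 24 h, without OXA for the non-treated group and with OXA for the treated group, and the groups shared every other condition. The OXA dose is 10 nM in the sample labels but 10 µM in the design text, a difference not settled here. Each of 4 two-colour arrays held both groups, and by the sample labels OXA carried Cy5 on arrays 1 and 3, and Cy3 on the other two, while the labelling protocol has OXA as Cy5 throughout. The labels name 4 separate experiments but do not say whether the channels hybridised together came from 1 animal.

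Splicing removes introns in a sequence of steps carried out by the spliceosome. The U2 small nuclear ribonucleoprotein binds the branch site of the intron, and SR proteins, named for their runs of arginine and serine, bind RNA and help to choose which sites are used. Kinases of the CLK family phosphorylate SR proteins and thereby set where in the nucleus they reside and when they act.

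Precision was limited by the number of arrays. To be tested, a probe had to be marked well above background by the scanner software in 1 of the groups on 3 or more arrays, which held for 19502 probes. The share of probes so marked ran from 39.8% to 49.7% over the OXA channels and from 41.5% to 61.0% over the non-treated ones. Of 13 smooth muscle markers, 7 were named on the array, ACTA2, DES and CNN1 among them, and all 7 were well above background in both channels of every array. The arrays did not run the same way. Over 19437 tested probes, which are not independent replicates, the log2 ratios of arrays 1 and 4 correlated at r = 0.62, those of arrays 1 and 2 at r = -0.59, and those of arrays 2 and 4, which share a dye orientation, at r = -0.38. Array 3 correlated weakly with arrays 1, 2 and 4, at r = 0.23, -0.30 and -0.06. Values with array 2 turned or left out are therefore given beside the results that rest on it.

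Of the 28 member probes, 27 were tested, with 7 for SF3B1, 4 for SRSF1, 9 for SRSF11 and 7 for CLK1. Below, the signal is the scanner's processed intensity, and the log2 ratio is OXA over non-treated from the deposited value table, for which the brightest tested probe of a gene is given first. SF3B1, SRSF11 and CLK1 shared a pattern that SRSF1 did not have. For most of their tested probes the ratios were near or below -1 on arrays 1 and 4, above 1 on array 2 and close to 0 on array 3. The exceptions are given by gene below. The sign pattern of negative on arrays 1, 3 and 4 and positive on array 2 was found for 6 of 7 SF3B1 probes, 7 of 9 SRSF11 probes, 7 of 7 CLK1 probes and 0 of 4 SRSF1 probes, and for 17.8% of all tested probes. A ratio of -1 or lower on arrays 1 and 4 together with 1 or higher on array 2 was found for 17 of the 27 member probes and for 3.1% of all tested probes. Taken by array, a ratio of -1 or lower was found on array 1 for 19 member probes and 14.5% of all tested, on array 4 for 20 and 12.7%, and on array 3 for 0 and 1.16%. A ratio of 1 or higher on array 2 was found for 20 member probes and 11.7% of all tested. A negative ratio on all 4 arrays was found for 2 member probes, 1 each of SF3B1 and SRSF1, and for 3.76% of all tested, and a positive one for 1 member probe, of SRSF11, and 3.96% of all tested, so that 3 of 27 kept 1 sign beside 7.72% of all tested. The genes were chosen on these ratios and the probes of a gene are not replicates, so nothing is read from these counts. Means over the 4 arrays hide the shared pattern, since the values cancel.

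**Figure D1:**
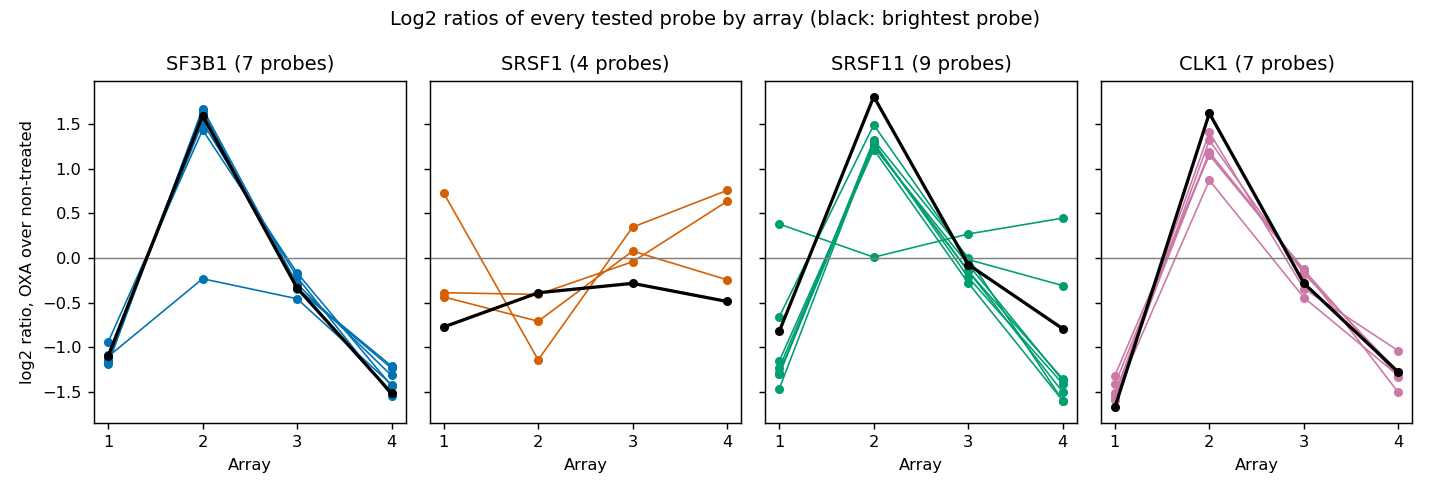
Log2 ratio of OXA over non-treated (vertical axis) on arrays 1 to 4 (horizontal axis) for each tested probe of the 4 genes, with a line joining the values of a probe and the brightest probe in black. The lines of CLK1 all peak on array 2, between 0.87 and 1.62, while those of SRSF1 do not run together.

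SF3B1 is the largest subunit of the SF3b complex of the U2 ribonucleoprotein, which recognises the branch site. Its brightest probe had non-treated signals of 15289, 6716, 19534 and 16201 on arrays 1 to 4. The OXA signals were 7122, 20266, 15461 and 5665 in the same order. The log2 ratios were thus -1.10, 1.59, -0.34 and -1.52. OXA was the lower channel on arrays 1, 3 and 4 and the higher channel on array 2, and the ranges of the groups overlapped. The mean log2 ratio was -0.34 ± 1.38 (SD, n = 4), so the spread between arrays was several times the mean. The probes of SF3B1 lie on 1 transcript and are not replicates, but they gave close values within an array. Over its 7 tested probes the log2 ratio ran from -1.19 to -0.94 on array 1, from -0.46 to -0.17 on array 3 and from -1.55 to -1.21 on array 4. On array 2, 6 probes ran up to 1.68, and the other had -0.23. That probe (A_72_P497594) was well above background in neither channel of array 2, with signals of 37.6 for OXA and 44.3 for non-treated tissue, so its mean of -0.80 ± 0.55 (SD, n = 4) rests in part on dim values. The untested probe (A_72_P599403) was well above background on 1 array for OXA and on 2 arrays for non-treated tissue, and it is given no ratio.

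SRSF1 is an SR protein that binds exonic enhancers and recruits the splicing machinery to nearby sites. Its brightest probe had non-treated signals of 6099.7, 6039.9, 4829 and 6225 on arrays 1 to 4. The OXA signals were 3566, 4606, 3963 and 4438. OXA was the lower channel on every array, and the highest OXA signal lay below the lowest non-treated signal. Those 2 signals are from arrays 2 and 3, and signals were not scaled between arrays. The log2 ratios were -0.77, -0.39, -0.29 and -0.49, with a mean of -0.48 ± 0.21 (SD, n = 4). This was the only member probe whose groups did not overlap, against 0.242% of all tested probes with every OXA signal below every non-treated signal, and nothing is read from this count because the gene was chosen on this contrast. The other 3 probes of SRSF1 did not share the pattern. The probe A_72_P674346 had -0.44, -0.71, 0.08 and -0.25, with 1 value above 0. The probe A_72_P442303 had 0.73, -1.14, 0.34 and 0.76, with signs opposite to those of CLK1 on every array, as 17.7% of all tested probes had. The probe A_72_P307588 had -0.39, -0.41, -0.04 and 0.63. The means of the 4 probes ran from -0.48 to 0.17, and which of them reflects the SRSF1 transcript was not tested.

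SRSF11 is an SR-related protein of nuclear speckles that takes part in spliceosome assembly. Its brightest probe had non-treated signals of 5605, 3039.6, 7229 and 4593 on arrays 1 to 4. The OXA signals were 3169, 10650.1, 6868 and 2648. The log2 ratios were -0.82, 1.81, -0.07 and -0.79, with a mean of 0.03 ± 1.24 (SD, n = 4). The OXA signal of array 2 was the highest of the 8 and that of array 4 the lowest, so the groups overlapped over the whole range. The 9 tested probes of SRSF11 fell into 3 kinds of pattern. Of them, 6 had ratios between -1.47 and -1.16 on array 1, between 1.21 and 1.32 on array 2 and between -1.60 and -1.36 on array 4. On array 3 these 6 ran from -0.28 to 0.002, and only A_72_P587806 was above 0 there. The brightest probe and A_72_P517377 had smaller negative ratios on arrays 1 and 4 (-0.66 and -0.31 for the latter) and larger positive ones on array 2 (1.49 for the latter). The probe A_72_P647594 had 0.38, 0.01, 0.27 and 0.45, with 1 sign on all 4 arrays. The array design names the same transcript for these probes, and where on it each lies is not given in the sources used here.

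CLK1 is a dual-specificity kinase that phosphorylates SR proteins, and its own transcript is known to be held back in the nucleus with introns retained. Its brightest probe had non-treated signals of 4038, 1463, 5957 and 3543 on arrays 1 to 4. The OXA signals were 1265, 4503, 4897 and 1458. OXA was 3.19-fold lower on array 1, 3.08-fold higher on array 2, 1.22-fold lower on array 3 and 2.43-fold lower on array 4. The log2 ratios of -1.67, 1.62, -0.28 and -1.28 had a mean of -0.40 ± 1.47 (SD, n = 4). All 7 probes of CLK1 gave the same signs on every array. Their ratios ran from -1.67 to -1.32 on array 1, from 0.87 to 1.62 on array 2, from -0.44 to -0.13 on array 3 and from -1.51 to -1.04 on array 4. Within an array the probes thus differed by less than the arrays with opposite signs differed from each other.

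**Figure D2:**
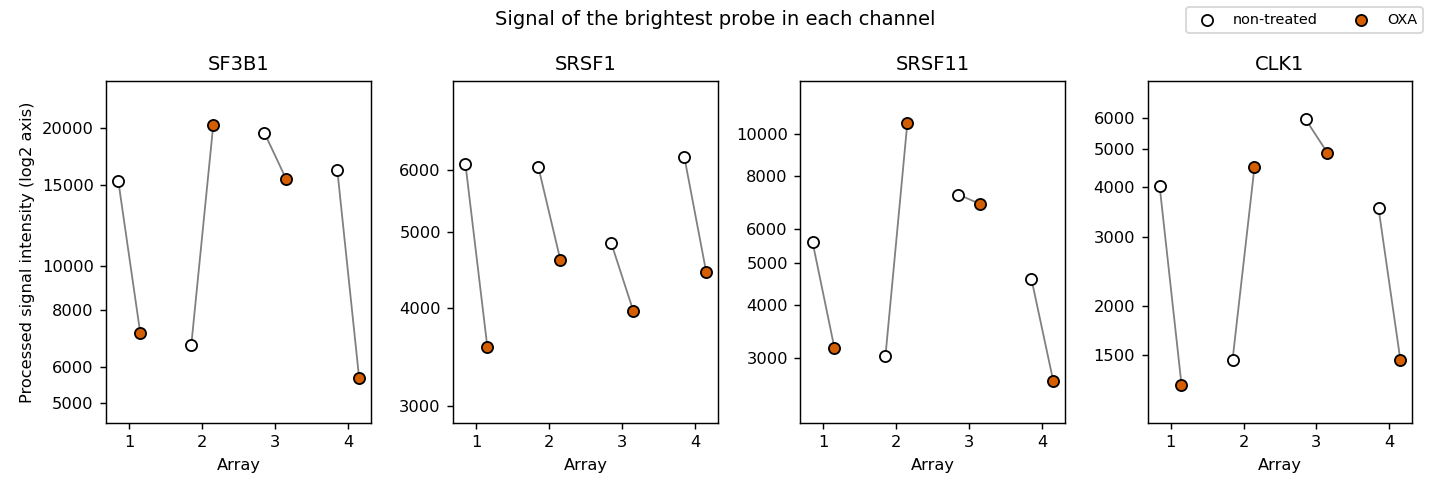
Processed signal intensity of the brightest probe of each gene (vertical axis, log2 scale) in the non-treated (open) and OXA (filled) channel of arrays 1 to 4, with a line joining the channels of an array. For SF3B1, SRSF11 and CLK1 the OXA signals of arrays 1 and 4 and the non-treated signal of array 2 lie below the other 5.

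The signals can also be ordered over all 8 channels. For the brightest CLK1 probe the 3 lowest of the 8 signals were those of OXA on arrays 1 and 4 and of non-treated tissue on array 2, at most 1463, and the lowest of the other 5 was 3543. The same 3 channels were the lowest for 7 of 7 CLK1 probes, 6 of 7 SF3B1 probes, 8 of 9 SRSF11 probes and 0 of 4 SRSF1 probes, against 11.4% of all tested probes. Nothing is read from these counts either, because the genes were chosen on this contrast. The low channel was in Cy3 on array 4 and in Cy5 on arrays 1 and 2, and its group is given by the sample labels. The part of dye in these signals was not tested. The scanner software processed each array by itself, and the signals were not scaled between arrays. Both channels of array 3 were on the high side, with CLK1 at 5957 and 4897 and SF3B1 at 19534 and 15461.

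The brightest probes can be set among all tested probes of an array. On array 1, 3.72% of tested probes had a lower ratio than the brightest CLK1 probe, 12.4% a lower one than that of SF3B1 and 18.8% a lower one than that of SRSF11. On array 2 the share of probes with a lower ratio was 96.8% for CLK1, 96.6% for SF3B1 and 97.7% for SRSF11. On array 4 it was 7.24%, 4.18% and 18.6% for the same 3 genes. On array 3, where ratios spread less, it was 18.4%, 14.2% and 40.5%. For SRSF1 it was 20.1%, 29.4%, 18.1% and 29.4% on arrays 1 to 4, so on array 2 SRSF1 lay in the lower part of the distribution and the other 3 genes near its top.

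**Figure D3:**
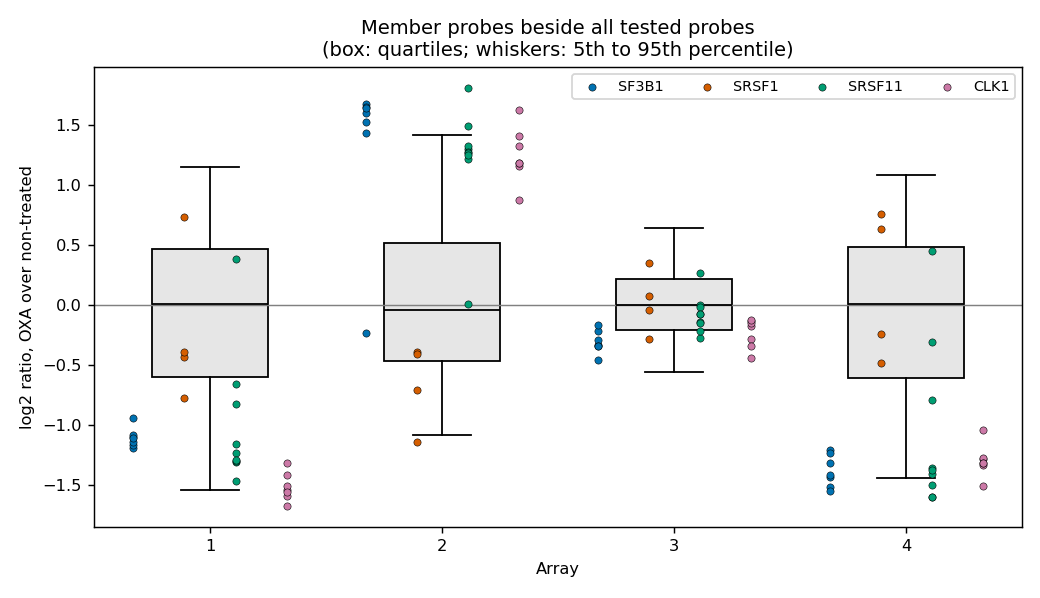
Log2 ratio of OXA over non-treated (vertical axis) on each array (horizontal axis), with boxes for the quartiles and whiskers for the 5th to 95th percentile of all tested probes and points for the member probes. On array 2 most points of SF3B1, SRSF11 and CLK1 lie above 1, and on array 4 most lie below -1.

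limma, fitted across all tested probes with a term for OXA and a term for dye, called 0 of the 27 member probes and 0% of the 19502 tested (Benjamini-Hochberg adjusted p threshold of 0.05). An unadjusted p under 0.05 was found for 1.22% of all tested probes and for 1 member probe, the dim SF3B1 probe, which passed the filter only through the non-treated channel, where it was the higher, so its p supports nothing. With the channels fitted separately, limma called 0 probes as well, with 663 at an unadjusted p under 0.05. The result turned on array 2. Without it, the fit estimated log2 ratios of -1.12 for SF3B1, -0.51 for SRSF1, -0.62 for SRSF11 and -1.13 for CLK1. It then called 7 of 27 member probes, all lower with OXA (1 of SF3B1, 3 of SRSF11 and 3 of CLK1), and 5.68% of all tested probes (4.32% lower with OXA). These counts come from the ratios on which the genes were chosen, less the array that runs against the others, and nothing is read from them. There only arrays 1 and 3 share a dye orientation and give the spread, and limma assigned every member probe the same SE of 0.37. Without array 1, 3 or 4 it called 0 member probes each time, beside 0.00513%, 0.0256% and 0.0308% of all tested.

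With the ratios of array 2 turned in sign and the dye term retained, the fit gave estimates of -1.26 for SF3B1, -0.36 for SRSF1, -0.85 for SRSF11 and -1.24 for CLK1. limma then called 0 probes, with 5264 at an unadjusted p under 0.05. Without array 4 the sign turned for SF3B1 (0.44) and CLK1 (0.32), SRSF11 went from 0.03 to 0.68, and SRSF1 had -0.46. Under the protocol's wording, which has OXA in Cy5 throughout, the estimates were -0.38 for SF3B1, -0.05 for SRSF1, -0.48 for SRSF11 and -0.57 for CLK1. OXA and Cy5 then coincide on every array, so no dye term was fitted and OXA and dye bias cannot be told apart.

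**Figure D4:**
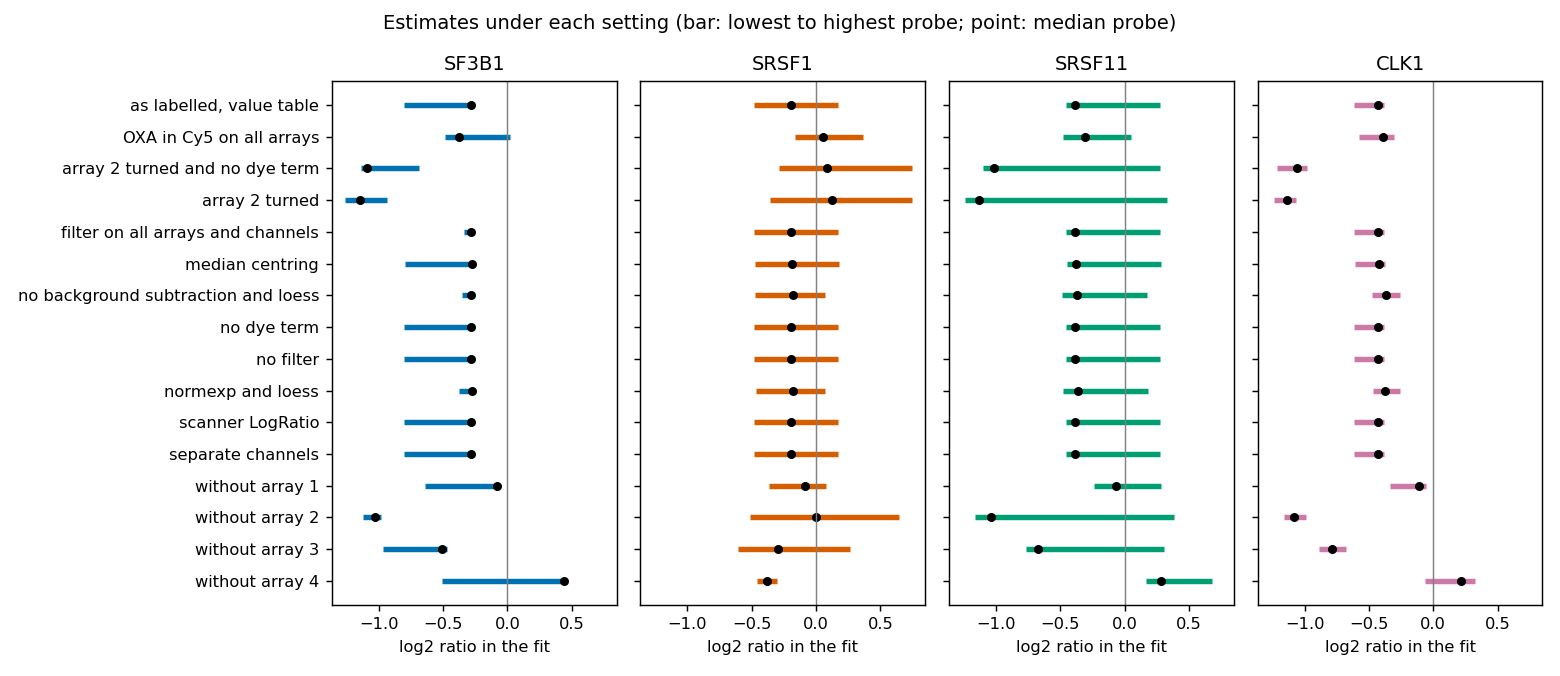
Estimated log2 ratio of OXA over non-treated (horizontal axis) for the tested probes of each gene under each setting (vertical axis), with bars from the lowest to the highest probe and points at the median probe. The CLK1 probes lie between -1.16 and -0.99 without array 2 and between -1.24 and -1.07 with array 2 turned, away from the fit as labelled.

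Of 193 genes in 6 lists of splicing genes, members included, 45 had a tested probe, and 0 were called higher or lower by limma, with 0 at an unadjusted p under 0.05. The median over the 45 genes was 0.02, beside 0.08 over all 1985 named genes and -0.02 over all tested probes. The sign pattern of SF3B1, SRSF11 and CLK1 was found for 7 of the other 41 splicing genes (17.1%), beside 6.88% of named genes and 17.8% of all tested probes. They included TRA2A, PNN, SNRPB2, PPP1CB, HNRNPH3 and PTBP3, named here after their values were seen. Signs and values of list genes are those of the brightest tested probe. All tested probes of TRA2A, PNN and HNRNPH3 had this pattern. For PTBP3, 1 of 4 probes departed from it on array 2, 3 of 4 on array 3 and 2 of 4 on array 4. For SNRPB2, 2 of 4 departed on arrays 2 and 3 and 1 of 4 on array 1. For PPP1CB, 3 of 10 departed on array 2 and 1 of 10 on array 4. The opposite sign pattern was found for 5 of the 41 (DHX16, SNRPC, SNRPE, SNU13 and SRPK3), beside 23.9% of named genes and 17.7% of all tested probes. Of 3 SNU13 probes, 1 departed from it on array 3. Of the 45, 4 were negative on all 4 arrays and 5 positive, beside 2.93% and 5.72% of named genes.

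Among 12 SR proteins and SR-like factors the array medians were -0.21, 0.18, -0.06 and 0.05. TRA2A, which promotes exon inclusion, had -0.98, 0.61, -0.18 and -0.32 on arrays 1 to 4. PNN, a speckle protein, had -0.61, 0.94, -0.52 and -0.54. SRSF12 was positive on all 4 arrays, with 0.30 ± 0.35 (SD, n = 4). By the brightest probe, SRSF2, SRSF4, SRSF6, SRSF9 and SRSF10, relatives of SRSF1, had means between -0.09 and 0.08, and each had both signs among its 4 values. The other of 2 tested SRSF4 probes had a mean of 0.66 and was positive on arrays 1, 2 and 4.

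Of the U2 list, SF3B1, SNRPB2 and DDX46 were measured. SNRPB2, a protein of the U2 particle, had -0.68, 0.13, -0.13 and -0.69. DDX46, a helicase that acts with the U2 particle, had 0.61, 1.30, 0.34 and 0.30, positive on all 4 arrays. The SF3B1 ratio and the DDX46 ratio were both above 1 on array 2 and of opposite sign on the other arrays.

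Among 8 SR protein kinases and phosphatases the array medians were -0.29, -0.24, -0.18 and -0.22. The SR protein kinases SRPK1 and SRPK3 had means of 0.14 ± 0.18 and 0.14 ± 0.34 (SD, n = 4), and each had both signs among its 4 values. By the brightest probe, the phosphatase subunits PPP2CA and PPP1CC were negative on all 4 arrays, with -0.43 ± 0.08 and -0.41 ± 0.06 (SD, n = 4). Of 6 PPP2CA probes, 2 were positive on array 4, and PPP1CC had 1 tested probe. PPP1CB, a catalytic subunit of protein phosphatase 1, had -1.03, 0.49, -0.17 and -1.42, with the signs of CLK1. CLK2, CLK3, CLK4 and SRPK2 were not measured by a probe named here.

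Among 7 hnRNPs and splicing repressors, by the brightest probe, HNRNPA1 was negative on all 4 arrays with -0.32 ± 0.12, and PTBP1 was positive on all 4 with 0.52 ± 0.32 (SD, n = 4). Of 4 HNRNPA1 probes, 2 were positive on array 4, and of 2 PTBP1 probes, 1 was negative on array 2. HNRNPH3 had -0.58, 1.00, -0.20 and -0.75, and PTBP3 had -0.87, 0.98, -0.04 and -0.39. Among 13 genes of the spliceosome core the array medians were 0.21, -0.19, 0.01 and 0.42, with signs opposite to those of CLK1 on all 4 arrays, beside medians of 0.25, -0.22, 0.02 and 0.29 over all named genes. By the brightest probe, EIF4A3, a core protein of the exon junction complex, and PRPF3, a protein of the tri-snRNP, were positive on all 4 arrays, with 0.25 ± 0.25 and 0.16 ± 0.10 (SD, n = 4). Each had 2 tested probes. The other PRPF3 probe was negative on all 4 arrays, with a mean of -0.10, and the other EIF4A3 probe was negative on array 2. The list of tissue and stress regulators held 2 measured genes, QKI with -0.10 ± 0.52 and RBM38 with 0.06 ± 0.52 (SD, n = 4).

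**Figure D5:**
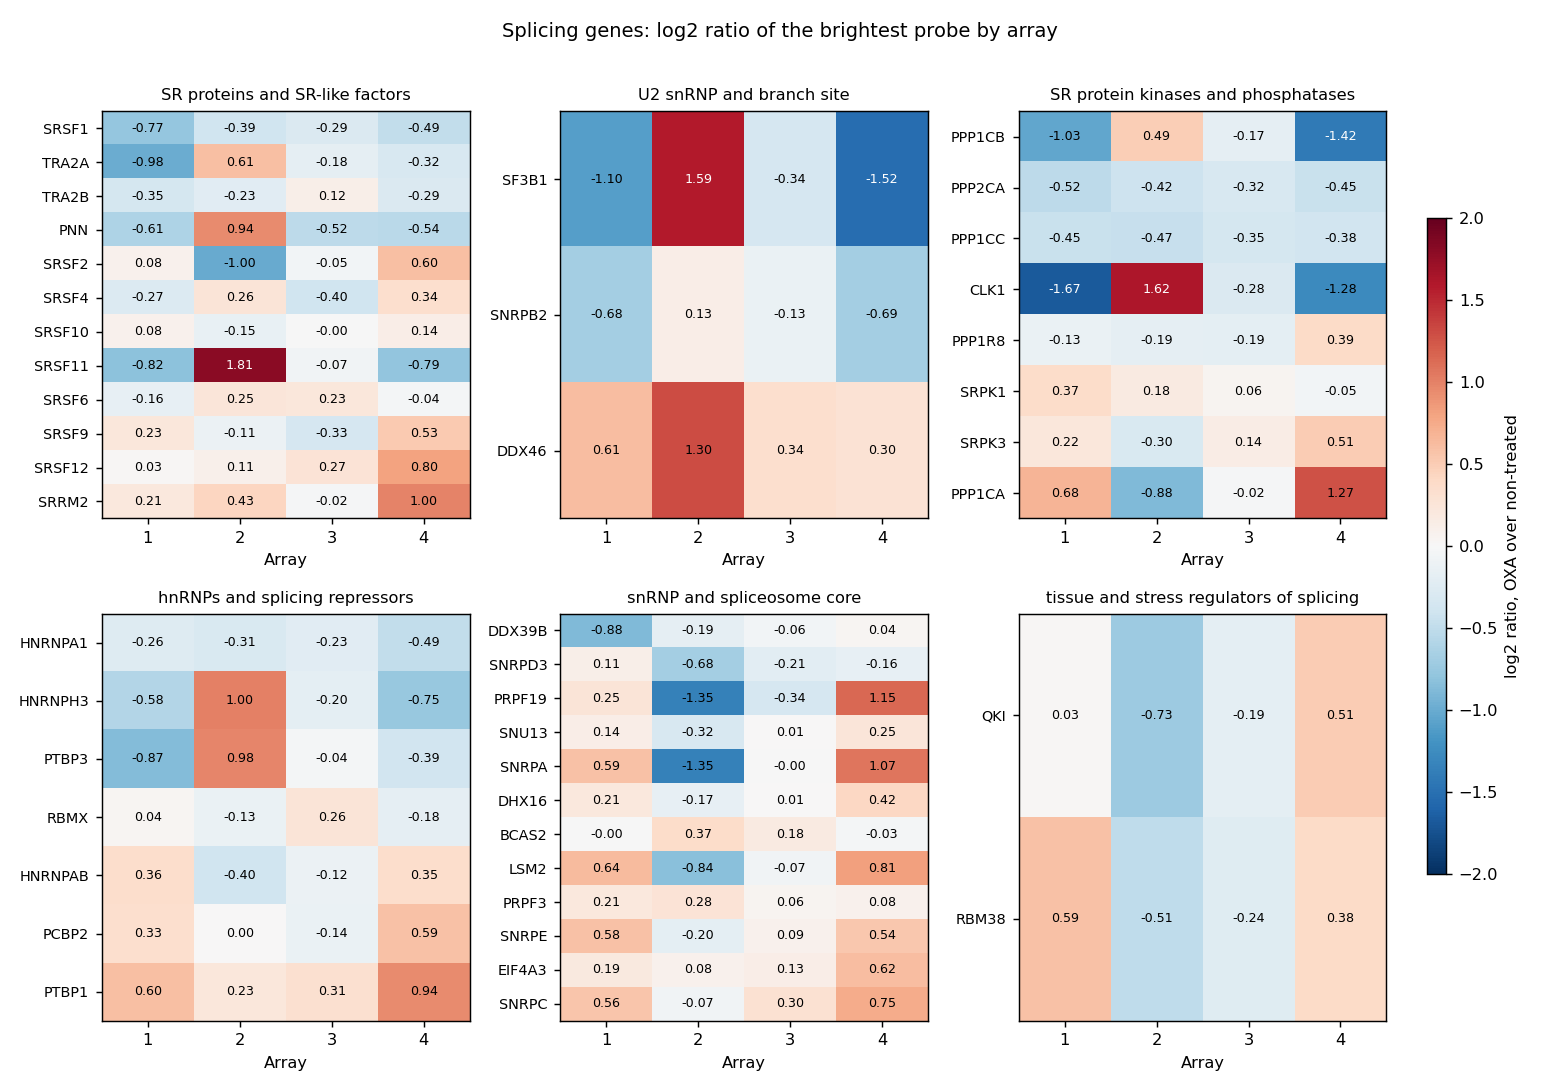
Log2 ratio of OXA over non-treated for the brightest probe of each splicing gene reported (rows, in order of the mean) on arrays 1 to 4 (columns), printed in each cell and coloured from blue (negative) to red (positive), in 6 panels by list. SF3B1, SRSF11 and CLK1 are blue on arrays 1 and 4 and red on array 2.

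Likeness of pattern was measured as the Euclidean distance over the 4 array log2 ratios to the brightest probe of each other named gene (1976 genes compared). Closest to CLK1 were TTC14 (distance 0.403), CCPG1 (0.462) and SEC62 (0.533). Among the 3 closest to SF3B1 were AKAP9 (0.448) and TTC14 (0.466). Closest to SRSF11 were IFNAR2 (0.381), RND3 (0.409) and PNISR (0.418). TTC14 had -1.43, 1.32, -0.23 and -1.36 on arrays 1 to 4, and PNISR, a serine- and arginine-rich protein, had -0.98, 2.18, -0.16 and -0.87. Closest to SRSF1 were ZFAND5 (0.225), RNASE4 (0.251) and PPP2CA (0.261).

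Markers of other cell types also differed between the channels of an array. In these bulk samples, fewer cells of a type and less RNA per cell cannot be told apart. The 4 measured of 7 uterine epithelial markers (KRT8, EPCAM, CDH1 and MUC4) had array medians of -1.46, 2.06, -1.04 and 1.98, with the signs of CLK1 on arrays 1 to 3 and the opposite sign on array 4. KRT8 had a positive ratio on array 1. None of the 4 was well above background in both channels of every array, and their summed signal ran from 81.5 to 8058 in the OXA channels and from 199 to 2052 in the non-treated channels. The 7 measured of 9 macrophage markers had medians of 0.80, -0.89, 2.03 and 0.73, opposite in sign to CLK1 on all 4 arrays, with summed signals from 1209.8 to 8776 for OXA and from 1366 to 5019 for non-treated tissue. Of the 7, 5 had this sign pattern themselves, as had 23.9% of named genes. CD163 had -0.64, 0.30, 1.18 and -0.32 on arrays 1 to 4, and CD14 had -0.06 on array 3. The 7 smooth muscle markers had medians of -0.08, -0.17, 0.23 and -0.28, the 4 endothelial ones -0.40, -0.18, 0.26 and 0.59, and the 3 stromal ones -0.14, -0.43, 0.19 and -0.59. Of the lymphocyte markers, 6 were named on the array and 0 were tested. The part of cell makeup in the values of SF3B1, SRSF11 and CLK1 was not tested.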

How the data were processed

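Explant RNA was hybridised to 4 Agilent two-colour arrays, all on 1 slide, which leaves no slide batch to fit. Per the file headers, Agilent Feature Extraction (version 10.7.3.1) wrote the deposited scanner output, with a linear spot intensity for each dye and the log10 of Cy5 over Cy3. The authors' deposited value table holds log2 ratios. Set against the scanner ratios its columns had slopes near 1 where OXA was in Cy5 and near -1 where it was in Cy3, so it runs as OXA over non-treated with the dyes as labelled, and its column medians were 0.10, 0.10, -0.19 and 0.07. How the table was made is not given in the sources used here.

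From these, spots with an outlier flag were left out (none of a member), probes were named through RefSeq accessions of assembly Sscrofa11.1 without versions (6700 probes of 3029 genes), and limma 3.58.1 in R 4.3.3 was fitted with terms for OXA and dye (2 residual degrees of freedom). All p-values are two-sided and cover the spread between these 4 arrays only. The fit was also run on simulated data, with the same noise spread for all probes and no dye bias. No simulated array ran against the others, so that run does not speak for these arrays. Members and lists were chosen with earlier results of these data known. Besides the members, genes named were, per list, up to 2 with the highest and 2 with the lowest mean among those of 1 sign on all 4 arrays, the CLK and SRPK kinases, the U2 proteins, and 3 nearest genes per member. Outside that rule and after their values were seen, splicing genes with the sign pattern of CLK1 or its opposite were named, as were 5 relatives of SRSF1, both measured tissue and stress regulators, and cell type markers. A gene that the rule or the lists hold is counted but not reported here by name. Alternatives were normexp (offset 50) or no background subtraction, both on median signals with loess, median centring, the scanner's log ratio, other filters, no dye term, other dye assignments, separate channels, the mean of a gene's probes and leaving out each array. Turning array 2 with no dye term was added after seeing the data.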

Additional observations from a re-analysis of the deposited data

Results flagged for a closer look

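Of 98 sets of 4 values tested for members and named splicing genes, 1 array stood apart from the other 3 in 2 sets by Dixon's ratio, where chance gives about 5%. The log2 non-treated signal of the dim SF3B1 probe A_72_P497594 was 5.47 on array 2, below a range of 7.00 to 7.29 elsewhere. The log2 non-treated signal of the brightest SRSF1 probe A_72_P303014 was 12.2 on array 3, below a range of 12.56 to 12.60 elsewhere.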

How the results depend on the processing

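Under 16 alternatives per gene, 62 of 64 estimates of the brightest member probes stayed within 1 SD of the value reported, a wide bound where the arrays oppose each other. The sign was kept in 15 of 16 for SF3B1 and CLK1 (not without array 4), in 16 of 16 for SRSF1 and in 10 of 16 for SRSF11. SRSF1 moved to -0.045 where OXA was taken as Cy5 throughout, which leaves no dye term, and to -0.17 as the mean of its probes. Leaving out each array gave -1.12 to 0.44 for SF3B1, -0.61 to -0.36 for SRSF1, -0.62 to 0.68 for SRSF11 and -1.13 to 0.32 for CLK1. It gave 1 to 1108 called probes, the highest without array 2, and 0 to 2 called splicing genes (CLK1 and SF3B1, both without array 2). All other alternatives called 0 probes. The median over the 8 SR kinases and phosphatases of their 4-array means was -0.22, and it was 0.0091 with OXA as Cy5 throughout, -0.12 with array 2 turned, -0.065 with array 2 turned and no dye term, -0.17 with normexp and loess, -0.17 with no background subtraction and loess, and -0.23 to -0.050 leaving out each array. The medians of the other 5 lists stayed within 1 SD of their array medians, a bound that differs widely between lists. It was 0.047 for the kinases and phosphatases and 0.94 for the U2 list. Within it the U2 median went from -0.34 to 0.44 without array 4. That of the spliceosome core went from 0.12 to -0.013 without array 1 and to -0.028 without array 4. The cause of these moves was not tested. The ratios pair the channels of an array, and with 1 group of ratios there was no further replicate block to fit. Dim probes limit SF3B1 at 2 of its 8 probes.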
